A study of Drosophila melanogaster with 4 samples.

Results

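The 6 genes described here, traffic jam (tj), CrebA, jumeau (jumu), bowl, CtBP and broad (br), encode transcription factors or, for CtBP, a corepressor, and were picked by name from 13931 gene rows because of their reads in the same values that are described below. Small RNAs bound to Piwi were measured in OSC, a cultured line of ovarian somatic cells of the fruit fly Drosophila melanogaster, kept at 26 degrees. Cells of the Yb ΔHel-C group (2 libraries) received a plasmid for Yb without the domain named Hel-C, and cells of the Yb WT group (2 libraries) received a plasmid for wild-type Yb. All 4 libraries shared an siRNA against Yb and a Flag antibody purification of Flag-Piwi, and RNA of 23 to 30 nucleotides was cloned. The cells were transfected, and the labels do not say what share of them took up the plasmid. The study concerns the assembly of Yb bodies, and the comparison asks which small RNAs are on Piwi when Yb lacks Hel-C.

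PIWI-interacting RNAs (piRNAs) are small RNAs that guide Piwi proteins to matching transcripts. In the somatic cells of the fly ovary, Piwi carries piRNAs made from transposon-rich clusters and also piRNAs cut from the mRNAs of ordinary genes, often from their 3' UTRs. Yb is a Tudor-domain protein with a helicase-like part found in Yb bodies, cytoplasmic granules where piRNA precursors collect. The tj mRNA is the best known of the genic sources in these cells, and the Tj protein is also known to switch on piwi. A value below is therefore the share of piRNA-sized reads on Piwi that was assigned to a gene. It is not an absolute amount, and not the level of the mRNA or protein of that gene.

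Each group has 1 deposited column of values in RPM (reads per 1000000), so the libraries of a group could not be compared and no difference has a replicate check. The values are whole multiples of 1 read, from totals of 2803305 reads (Yb ΔHel-C) and 2955141 reads (Yb WT). Of these, 80.7% (Yb ΔHel-C) and 69.2% (Yb WT) lie in the listed rows. Intervals are exact 95% intervals that cover counting error only, and PCR copies are not independent molecules. Log2 folds are on RPM + 0.5, Yb ΔHel-C over Yb WT, and a size of at least 1 is the rule for calling a gene 2-fold higher or 2-fold lower. Genes that averaged at least 1 RPM over the columns are termed detected. No test of the 6 genes is given, because there is 1 column per group and their values in both columns chose them. Of the 10 markers of the ovarian soma, tj included, 9 were detected, and together they held 9331 RPM in Yb ΔHel-C and 9238 RPM in Yb WT, with 3 called higher and none lower. Without tj they held 4850 RPM in Yb ΔHel-C and 2266 RPM in Yb WT. With TMM 1 of the 9 was called higher and 1, tj, lower, and with RLE none higher and 1 lower. The 14 germline markers together held 224 RPM in Yb ΔHel-C and 216 RPM in Yb WT, and of the 11 detected none was called higher and 2 were called lower (3 with TMM or RLE). Among them vas had 2 reads in Yb ΔHel-C and 0 in Yb WT, with osk at 1 read in each column and rhi at 0 in both. Others had more reads, such as del (78.1 RPM in Yb ΔHel-C and 54.5 RPM in Yb WT) and krimp (68.5 and 44.3 RPM). The genes called lower on the authors' totals were orb (12.1 RPM in Yb ΔHel-C and 43.0 RPM in Yb WT) and aub (4.99 and 10.8 RPM). How far these markers bear on the values of the 6 genes was not tested.

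In Yb ΔHel-C, 4 of the 6 genes had fewer Piwi-bound reads (tj, CrebA, jumu and br) and 2 had more (bowl and CtBP). The genes moved by different amounts, from a log2 fold of -0.99 for jumu to 1.45 for bowl, a span of 2.44. Only bowl was called 2-fold higher, and none was called 2-fold lower. With the scaling factors of edgeR (TMM or RLE), which shift all folds of genes downward, bowl lost that call and tj, CrebA, jumu and br passed 2-fold lower. Over the 7577 detected genes, 44.9% were called higher and 4.98% lower, and since these values chose the 6 genes, nothing is read from that share. Together the 6 genes held 21331 RPM in Yb ΔHel-C and 23990 RPM in Yb WT, 1.12-fold lower (interval 1.11 to 1.14). That was 2.70% of the gene reads in Yb ΔHel-C (2.68% to 2.73%) and 3.74% in Yb WT (3.71% to 3.77%). The 5 genes other than bowl held 17047 RPM in Yb ΔHel-C and 22419 RPM in Yb WT, 1.32-fold lower.

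**Figure D1:**
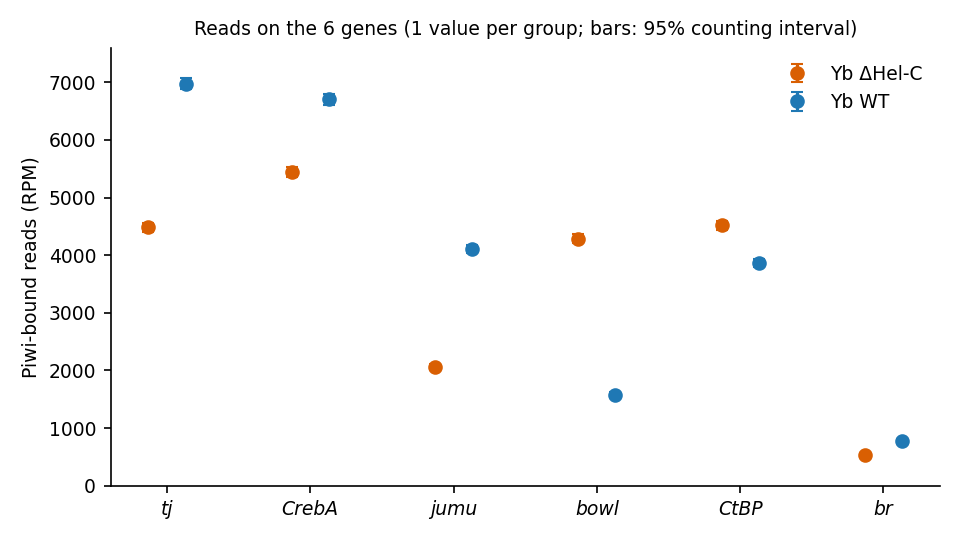
Reads on each of the 6 genes in RPM (vertical axis, from 0) in Yb ΔHel-C (orange, left) and Yb WT (blue, right), 1 deposited value per group, with exact 95% counting intervals as bars. The value for bowl is 4284 RPM in Yb ΔHel-C and 1571 RPM in Yb WT, whereas jumu is at 2061 RPM in Yb ΔHel-C and 4103 RPM in Yb WT.

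The first pair are basic leucine zipper factors. The gene tj encodes a large Maf factor that marks the gonadal soma and is needed for the somatic cells to enclose the germline. It lies on 2L from 19464267 to 19467758 (dm6), a protein-coding locus of 3.49 kb. It had 4481 RPM in Yb ΔHel-C (12561 reads) and 6972 RPM in Yb WT (20604 reads), a 1.56-fold lower level (1.52 to 1.59). Its share of all gene reads was 0.568% in Yb ΔHel-C and 1.09% in Yb WT. Among gene rows it ranked 7 in Yb ΔHel-C and 3 in Yb WT.

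CrebA encodes the fly relative of the CREB3 factors, which raises the expression of secretory pathway genes in secreting cells such as those of the salivary gland. It lies on 3L from 15535395 to 15553214. It had 5446 RPM in Yb ΔHel-C (15266 reads) and 6708 RPM in Yb WT (19823 reads), a 1.23-fold lower level (1.21 to 1.26). Its rank was 2 in Yb ΔHel-C and 4 in Yb WT. The level was lower while the rank was higher, because Imp, jvl and tj, the rows above it in Yb WT, all lay below it in Yb ΔHel-C. Only CG18048, at 11286 RPM, lay above CrebA in Yb ΔHel-C. Within a column the ratio of 2 genes does not depend on how the columns are scaled. The CrebA to tj ratio was 1.22 in Yb ΔHel-C and 0.962 in Yb WT, a change of 1.26-fold (1.23 to 1.30).

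The gene jumu encodes a forkhead factor with roles in heart progenitors and in position-effect variegation. It lies on 3R from 10350182 to 10361612. It had 2061 RPM in Yb ΔHel-C (5778 reads) and 4103 RPM in Yb WT (12125 reads), a 1.99-fold lower level (1.93 to 2.05). This was the lowest ratio of the 6 genes, and its log2 fold of -0.99 lay just short of the 2-fold minimum. It passed 2-fold lower with TMM (-1.84), with RLE (-1.89) and when scaled to gene reads (-1.29). Its rank was 37 in Yb ΔHel-C and 12 in Yb WT. Relative to tj, jumu was at 0.460 in Yb ΔHel-C and 0.588 in Yb WT, a further 1.28-fold loss (1.23 to 1.33). Between these 2 columns jumu and tj thus differed by more than counting error. Variation between libraries, which could also shift this ratio, was not measured.

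The gene bowl encodes a zinc finger factor of the odd-skipped family that patterns leg joints and the gut and is held in check by the Lines protein. It lies on 2L from 3771700 to 3784121. It had 4284 RPM in Yb ΔHel-C (12010 reads) and 1571 RPM in Yb WT (4644 reads), a 2.73-fold higher level (2.64 to 2.82). Its log2 fold of 1.45 was 0.60 with TMM and 0.55 with RLE. Its rank was 9 in Yb ΔHel-C and 60 in Yb WT, the widest gain among the 6 genes. In Yb ΔHel-C bowl and tj had nearly the same number of reads, whereas in Yb WT tj had several times the reads of bowl. The bowl to tj ratio was 0.956 in Yb ΔHel-C and 0.225 in Yb WT, a 4.24-fold change (4.07 to 4.42). The bowl to jumu ratio was 2.08 in Yb ΔHel-C and 0.383 in Yb WT, a 5.43-fold change (5.18 to 5.68).

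CtBP encodes a corepressor that resembles a dehydrogenase and is brought to DNA by repressors such as Knirps and Hairless. It lies on 3R from 13011649 to 13026275. It had 4519 RPM in Yb ΔHel-C (12668 reads) and 3864 RPM in Yb WT (11419 reads), a 1.17-fold higher level (1.14 to 1.20). As a share of gene reads it was at 0.573% in Yb ΔHel-C and 0.602% in Yb WT. Its direction therefore turned when the columns were scaled to gene reads (log2 fold -0.072), and also with TMM (-0.62) and RLE (-0.67). Its rank was 6 in Yb ΔHel-C and 13 in Yb WT.

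The gene br encodes BTB zinc finger factors of the early ecdysone response, which in follicle cells mark the territory of the dorsal eggshell appendages. It lies on X from 1575132 to 1664869, a locus of 89.7 kb with 16 RefSeq transcripts. It had 540 RPM in Yb ΔHel-C (1515 reads) and 772 RPM in Yb WT (2280 reads), a 1.43-fold lower level (1.34 to 1.52). This was the lowest level of the 6 genes in each column. Its rank was 279 in Yb ΔHel-C and 162 in Yb WT. Relative to tj, br was at 0.121 in Yb ΔHel-C and 0.111 in Yb WT, a 1.09-fold change (1.02 to 1.17).

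**Figure D2:**
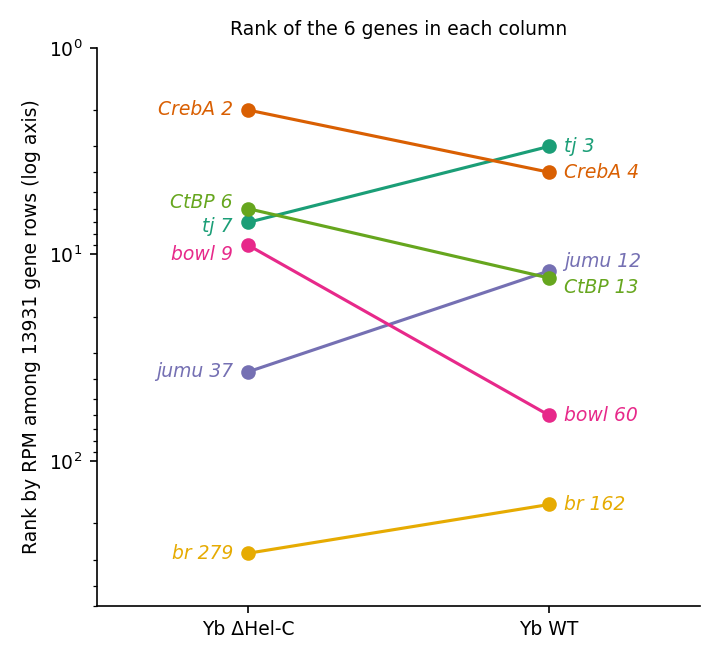
Rank of each of the 6 genes by RPM among the 13931 gene rows (vertical log axis, rank 1 at the top) in Yb ΔHel-C (left) and Yb WT (right), with a line per gene. Ranks were higher in Yb ΔHel-C for CrebA, CtBP and bowl, and lower for tj, jumu and br.

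The order of neighbouring ranks was in part within counting error. In Yb ΔHel-C the intervals of CtBP (4441 to 4598 RPM), tj (4403 to 4560 RPM), Snap24 (4347 to 4503 RPM) and bowl (4208 to 4362 RPM) each overlapped that of the next. The CrebA interval of 5360 to 5533 RPM lay above all of these. CtBP also overlapped Imp (4538 to 4697 RPM), the row above it. The jumu interval in Yb ΔHel-C (2008 to 2115 RPM) overlapped those of ptc (2060 to 2168 RPM) and CG9821 (2001 to 2108 RPM) beside it. In Yb WT the intervals of tj (6877 to 7068 RPM) and CrebA (6615 to 6802 RPM) did not overlap. Nor did those of jumu (4030 to 4177 RPM) and CtBP (3794 to 3936 RPM), but jumu overlapped msi (4039 to 4185 RPM), the row above it. In Yb WT bowl lay between Tis11 (1580 RPM) and plum (1566 RPM) with overlapping intervals. The rank of br was as loosely set, with galectin (543 RPM) and Smox (538 RPM) beside it in Yb ΔHel-C, and CG31875 and Patr-1 beside it in Yb WT, 0.338 RPM (1 read) away on either side.

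Levels of different genes were compared per kb of the annotated locus, introns included, since transcript lengths were not used here. On that scale tj stood far above the other 5 genes in each column, at 1283 RPM per kb in Yb ΔHel-C and 1997 RPM per kb in Yb WT. It ranked 5 in Yb ΔHel-C and 2 in Yb WT among 13885 genes with a position. In Yb ΔHel-C the order after tj was bowl (345 RPM per kb), CtBP (309), CrebA (306), jumu (180) and br (6.02), and the intervals of CtBP (304 to 314) and CrebA (301 to 310) overlapped. In Yb WT it was CrebA (376 RPM per kb), jumu (359), CtBP (264), bowl (127) and br (8.60), with no overlap of intervals. On this scale br fell out of the most abundant rows, at rank 4021 in Yb ΔHel-C and 1961 in Yb WT. The loci of the other 5 genes are shorter, from 3.49 kb for tj to 17.8 kb for CrebA, beside a median of 2.96 kb over detected genes.

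Reads were high on the 6 genes and mostly not on the genes beside them. The nearest protein-coding genes of tj, CG10026 and CG10195, had 6.78 and 24.97 RPM in Yb ΔHel-C and 5.75 and 9.48 RPM in Yb WT. The tj row thus held 661 and 179 times the reads of these genes in Yb ΔHel-C, and 1212 and 736 times in Yb WT. Beside jumu, CG31406 ends 171 bases away and had 2 reads in Yb ΔHel-C and 1 in Yb WT, while Rfx starts 147 bases away and had 26.8 RPM in Yb ΔHel-C and 27.1 RPM in Yb WT. CG31960, which starts 825 bases from bowl, had 0 reads in Yb ΔHel-C and 1 in Yb WT, and CG43707 on the other side had 5.71 RPM in Yb ΔHel-C and 7.11 RPM in Yb WT. A count of 0 in Yb ΔHel-C was taken to allow up to 3 reads, or 1.07 RPM, a fixed limit and not the exact interval. Beside the 2.73-fold higher level of bowl, the ratio of CG43707 was 0.803 (0.392 to 1.62), from 16 reads in Yb ΔHel-C and 21 in Yb WT. The ratio interval of CG31960, from 0 to 41.1, was too wide to show a direction.

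Among the neighbours of CrebA, CtBP and br were genes with more reads. AGO2, the Argonaute gene of the siRNA pathway, starts 898 bases from CrebA and had 399.5 RPM in Yb ΔHel-C and 128 RPM in Yb WT, 3.12-fold higher (2.77 to 3.51), while CrebA was lower. CG8031, 338 bases from CtBP, had 192 RPM in Yb ΔHel-C and 47.4 RPM in Yb WT, 4.04-fold higher (3.35 to 4.91). CG46280, 7 bases from the other end of CtBP, had 630 RPM in Yb ΔHel-C and 623 RPM in Yb WT, a ratio of 1.01 (0.947 to 1.08). The gene inc, 57516 bases from br, had 676 RPM in Yb ΔHel-C and 328 RPM in Yb WT, above br in Yb ΔHel-C and below it in Yb WT. On the other side dor, 182 bases from br, had only 14.6 RPM in Yb ΔHel-C and 11.2 RPM in Yb WT. The locus of br lies inside that of Mur2B, a gene with 81.7 RPM in Yb ΔHel-C and 46.02 RPM in Yb WT. No source used here gives the strand setting or the rule for overlapping genes. Reads of br and Mur2B, and those at the nearly touching ends of CtBP and CG46280, cannot be told apart with certainty. No annotated locus of any kind overlapped the other 5 genes.

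**Figure D3:**
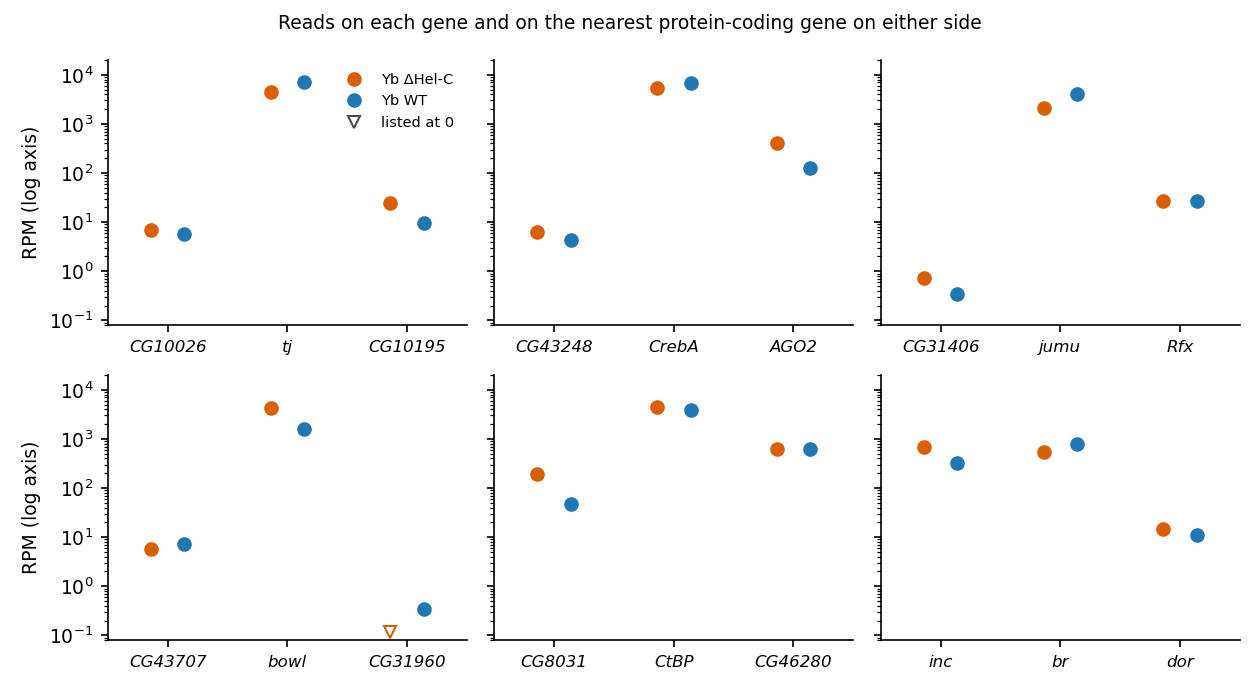
RPM (vertical log axis) of each of the 6 genes (middle of each panel) and of the nearest protein-coding gene on either side that does not overlap it, in Yb ΔHel-C (orange) and Yb WT (blue), with open triangles for a row listed at 0. The neighbours lie below the central gene in every panel except that of br, where inc had 676 RPM in Yb ΔHel-C, above the 540 RPM of br.

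Among other genes with many reads, the 6 genes spread over part of the range of folds. Since these values chose the 6 genes, nothing is read from their places. All 6 were among the 283 genes that averaged 500 RPM or more, of which 19.8% were called higher and 13.4% lower, with a median log2 fold of 0.016. All but br were among the 119 genes that averaged 1000 RPM or more, of which 17.6% were called higher and 16.8% lower, with a median of -0.20. Of these 119 genes, 21 had a lower log2 fold than jumu, 37 a lower one than tj, 54 a lower one than CrebA and 73 a lower one than CtBP. For bowl the number was 108. Over all 7577 genes, in contrast, the median log2 fold was 0.89, and 75.8% of genes had a lower fold than bowl, 24.8% a lower one than CtBP and 5.02% a lower one than jumu.

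**Figure D4:**
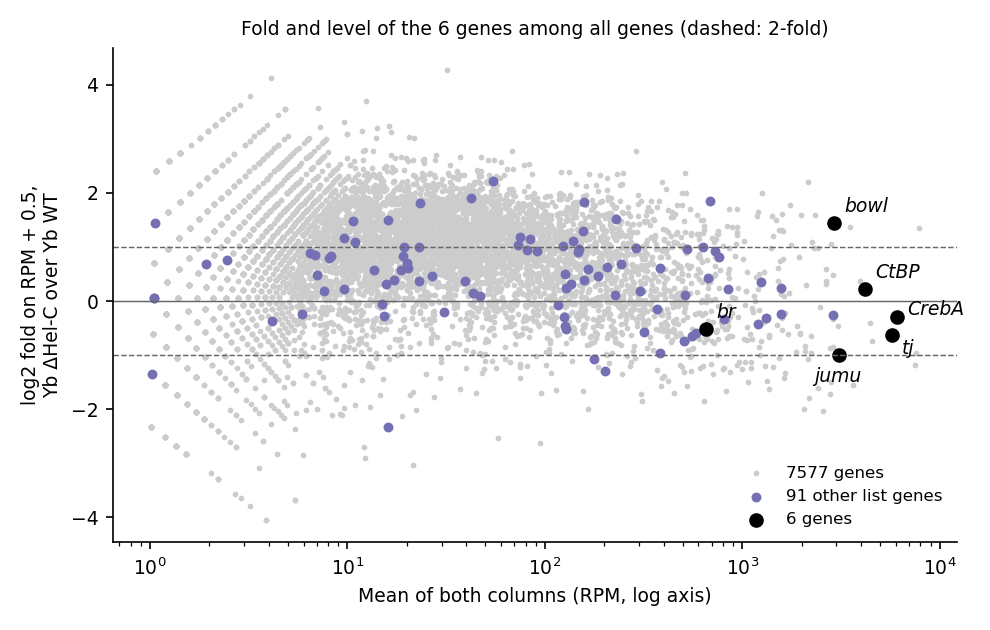
Log2 fold on RPM + 0.5, Yb ΔHel-C over Yb WT (vertical), against the mean RPM of both columns (horizontal log axis) for 7577 genes (grey), 91 other genes of the transcription factor lists (violet) and the 6 genes (black), with dashed lines at 2-fold. Of the 6 genes, the 5 with the most reads lie at the right edge, from -0.99 for jumu to 1.45 for bowl.

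The rows closest to each gene in both columns were found by the distance of log2(RPM + 0.5), over 2 columns only. The row nearest to tj was CrebA, and the row nearest to CrebA was tj, at a distance of 0.29, followed for tj by Fs(2)Ket, the importin beta gene (0.49), and Bsg (0.51). For jumu they were CG9821 (0.14), Su(var)2-10 (0.20) and CycG (0.38). For bowl they were msk (0.28), Cyp4p1 (0.396) and lama (0.41). For CtBP they were Snap24 (0.17), Bsg (0.47) and Fs(2)Ket (0.69). For br they were Smox (0.0068), CG31875 (0.018) and Patr-1 (0.068). With 2 columns such closeness means a like level and a like ratio, and nothing more.

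Other transcription factor and corepressor genes were taken from lists by protein family and role. Of 128 listed genes 125 had a row, 21 of them at 0 in both columns, and 97 were detected. Of these 97, 20 were called higher (20.6%), 4 lower (4.12%) and 73 neither, beside 44.9% and 4.98% of all genes. Their median log2 fold was 0.42, beside 0.89 over all genes. Both medians depended on the scaling, at -0.42 and 0.10 with TMM and -0.47 and 0.053 with RLE. With TMM, 3 of the 97 were called higher and 24 lower, beside 922 and 1072 of all 7577 detected genes. With RLE these were 2 and 26, beside 794 and 1130. Of the 283 genes from 500 RPM, 5 were called higher and 129 lower with TMM, and 4 and 132 with RLE. The scaled counts of each list below are to be read beside these. Without the 6 genes, the counts were 19 higher, 4 lower and 68 neither of 91, and the median was 0.47. The shares and medians above are not matched for level. By mean level, the medians of these 91 genes and of all genes were 0.59 and 0.78 from 1 to 10 RPM. They were 0.70 and 1.09 from 10 to 100 RPM, 0.43 and 0.62 from 100 to 500 RPM, and 0.17 and 0.016 from 500 RPM. The 6 genes held 45.5% of the reads of the 125 rows in Yb ΔHel-C and 51.03% in Yb WT. By reads CrebA, CtBP, tj, bowl and jumu were among the 6 most abundant of these rows in Yb ΔHel-C, and br was at rank 20. In Yb WT br was at rank 14, and bowl at rank 7.

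The family relatives of tj, CrebA, jumu and bowl on these lists had fewer reads than the gene they were set beside. Of 17 detected basic leucine zipper genes, 3 were called higher and 1 lower, and 13 met neither call. Their median log2 fold was 0.32, whereas none was called higher and 3 (TMM) or 4 (RLE) lower after scaling, with medians of -0.49 and -0.54. After CrebA and tj the most abundant was kay, the fly Fos gene, at 1702 RPM in Yb ΔHel-C and 1431 RPM in Yb WT, 1.19-fold higher (1.14 to 1.24) but lower with TMM and RLE. The endoplasmic reticulum stress factor gene Atf6 was the only one called lower, at 117 RPM in Yb ΔHel-C and 287 RPM in Yb WT, 2.46-fold lower (2.17 to 2.81). Of 17 forkhead rows 8 were at 0 in both columns and 6 were detected. Of these, 1 was called higher and none lower, and the median log2 fold was 0.65, against none higher and 2 lower with either factor (medians -0.18 with TMM and -0.22 with RLE). CHES-1-like, the forkhead gene with the most reads after jumu, was lower too, at 434 RPM in Yb ΔHel-C and 681 RPM in Yb WT (1.57-fold, 1.46 to 1.69). The third, croc, was called higher, at 223 RPM in Yb ΔHel-C and 90.4 RPM in Yb WT (2.47-fold, 2.14 to 2.86), a call lost with TMM and RLE. The odd-skipped relatives of bowl (odd, sob and drm) were all at 0 in both columns, and lin, the gene of Lines, had 22.5 RPM in Yb ΔHel-C and 14.9 RPM in Yb WT, 1.51-fold higher (1.01 to 2.27), which also turned with TMM and RLE. With bowl, 1 of the 2 detected genes of that list was thus called higher.

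Of 17 detected genes of CtBP, other corepressors and the repressors that use them, 6 were called higher, 1 was called lower and 10 met neither call. Their median log2 fold was 0.93. Smr, the gene of a nuclear receptor corepressor, had 912 RPM in Yb ΔHel-C and 783 RPM in Yb WT, 1.16-fold higher (1.10 to 1.23), a ratio close to that of CtBP and one that likewise turned with TMM and RLE. The tramtrack gene ttk, a BTB zinc finger repressor, had 951 RPM in Yb ΔHel-C and 499.8 RPM in Yb WT, 1.90-fold higher (1.79 to 2.03). The 5 highest folds over all the lists, for genes that averaged 10 RPM or more, were HDAC1, Med, Sin3A, Mi-2 and Su(var)3-3, and all but Med, a co-Smad gene, are on the corepressor list. Sin3A, the scaffold of a histone deacetylase complex, had 1079 RPM in Yb ΔHel-C and 297 RPM in Yb WT, 3.63-fold higher (3.37 to 3.92). HDAC1 had 90.6 RPM in Yb ΔHel-C and 18.95 RPM in Yb WT, 4.78-fold higher (3.57 to 6.51). With TMM, 2 of these 17 genes were called higher and 2 lower, and with RLE 1 and 2. The 5 lowest folds were those of pan, Atf6, H, jumu and Snoo. H, the gene of Hairless, a Notch pathway repressor that binds CtBP, had 115 RPM in Yb ΔHel-C and 242 RPM in Yb WT, 2.10-fold lower (1.84 to 2.40).

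Of 13 detected BTB zinc finger and related genes, br included, 2 were called higher and none lower. Their median log2 fold was 0.46. With both TMM and RLE none was called higher and 6 were called lower, beside 1072 (TMM) and 1130 (RLE) lower of all 7577 detected genes. Of this list chinmo, lola, psq, BtbVII and ttk had a higher mean level than br, and 3 of these 5 were lower in Yb ΔHel-C, as was br. The gene chinmo, which holds back differentiation in several tissues, had 2610 RPM in Yb ΔHel-C and 3130 RPM in Yb WT, 1.20-fold lower (1.16 to 1.24). The gene lola, of the same family and known for axon guidance, had 1031 RPM in Yb ΔHel-C and 1385 RPM in Yb WT, 1.34-fold lower (1.28 to 1.41). The gene psq, which encodes Pipsqueak, had 717 RPM in Yb ΔHel-C and 902 RPM in Yb WT, 1.26-fold lower (1.19 to 1.33). BtbVII, in contrast, had 971 RPM in Yb ΔHel-C and 549 RPM in Yb WT, 1.77-fold higher (1.66 to 1.88) on the authors' totals but at log2 folds of -0.02 (TMM) and -0.07 (RLE), and ttk, given above, was higher too. Of 17 detected genes of the ecdysone response, br had the most reads. In Yb ΔHel-C its lead over ftz-f1 was small (1515 and 1497 reads), and the ftz-f1 level lay inside the br interval of 514 to 568 RPM. On this list 2 were called higher and none lower, and the median was 0.086, against none higher and 4 lower with TMM (median -0.69) and none higher and 5 lower with RLE (-0.74). The nuclear receptor genes ftz-f1 (534 RPM in Yb ΔHel-C and 494 RPM in Yb WT) and Hr39 (349.9 RPM in Yb ΔHel-C and 389.8 RPM in Yb WT) followed it. The values of ftz-f1 also turned to lower with TMM and RLE. On a wider list of 54 factors, most of which act in follicle cells and which includes 5 of the 6 genes, 48 were detected. Of these, 6 were called higher and 2 lower, the median was 0.38, and CrebA, tj and jumu had the highest mean levels. With both TMM and RLE the calls were 1 higher and 16 lower, with medians of -0.44 and -0.49.

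**Figure D5:**
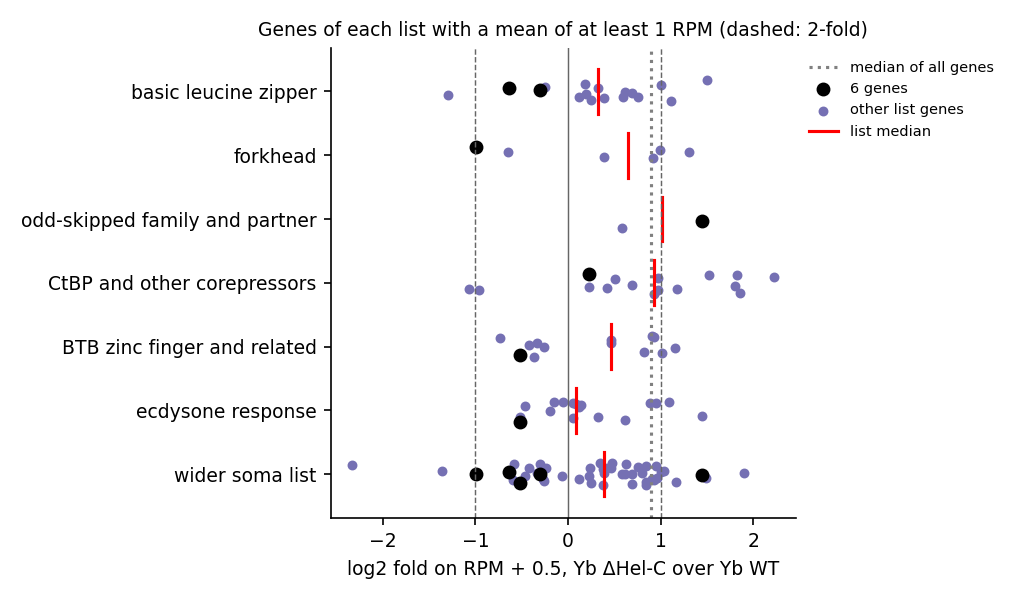
Log2 fold on RPM + 0.5, Yb ΔHel-C over Yb WT (horizontal), of each detected gene, by list (rows), with the 6 genes in black, other list genes in violet, list medians in red and the median of all genes as a dotted line. List medians run from 0.086 (ecdysone response) to 1.01 (odd-skipped family and partner, 2 genes), and some genes stand in several lists.

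Genes linked to Tj by earlier work were also listed. In the gonad Tj is known to activate piwi and to hold down adhesion proteins encoded by Fas3, Nrt, shg and CadN. All 5 genes had more Piwi-bound reads in Yb ΔHel-C, as had 81.0% of all detected genes, and 2 of the 5 were called higher, beside 44.9% of all. Their median log2 fold was 0.98, beside 0.89 over all, so nothing particular to these genes is read from them. This median was 0.14 with TMM and 0.088 with RLE, and CadN turned negative with both (-0.55 and -0.60). The piwi row had 1998 RPM in Yb ΔHel-C and 873 RPM in Yb WT, 2.29-fold higher (2.19 to 2.40), a call lost with TMM and RLE. Nrt had 663 RPM in Yb ΔHel-C and 336 RPM in Yb WT, 1.97-fold higher (1.83 to 2.13). Of the 2 listed genes with known 3' UTR piRNAs, brat was called lower, at 972 RPM in Yb ΔHel-C and 3384 RPM in Yb WT. The brat level was 3.48-fold lower (3.33 to 3.63), past the interval of the 1.56-fold lower level of tj.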

How the data were processed

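The authors' deposited table holds 1 value column per group for 13931 genes and 133 transposons, in RPM as judged from the values, since its header names no unit. Per the submitters' processing notes, the tools were STAR and HTSeq and the builds dm6 and BDGP6, with neither roles nor versions. No source used here says whether the 2 libraries of a group were pooled, which strand setting was used or how multiply mapping reads were handled. All nonzero values (100%) came out as whole reads, within 0.01 read, and these reads were used as counts. 0 columns of other series were present. Ratios have exact conditional (Clopper-Pearson) 95% intervals, levels exact Poisson intervals and shares Clopper-Pearson intervals (scipy 1.17.1). Only the ratio intervals, and 2-fold calls joined to an exact count test, were checked on simulated data. The 2-fold rule alone, which gave the counts of called genes above, was not checked in this way. The simulated data held counting error alone, so the check does not bear on variation between libraries. TMM and RLE factors came from edgeR 4.0.16, over all rows. Counts of called genes cover those averaging 1 RPM or more. RefSeq (Release 6, dm6) gave the positions. The 6 genes and all lists were chosen with earlier results of these data known. Genes were named by rule: the 6 genes, the 3 nearest rows and the rank neighbours of each, the 3 most abundant of each list and the 5 highest and 5 lowest folds over the lists at a mean of at least 10 RPM. Other genes (BtbVII, Atf6 as the only lower zipper gene, the rows beside each locus, odd, sob, CadN) were added after their values were seen. Fas3 and the germline markers named singly (vas, osk, rhi, del, krimp, orb and aub) also lie outside the rule.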

Additional observations from a re-analysis of the deposited data

How the results depend on the processing

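No paired analysis was possible because the columns carry no replicate numbers, and leaving out a library was not possible either. The planned rank by transcript length was not run for lack of transcript lengths, and locus length was used instead, a choice made after seeing the data. The scaling moved every log2 fold of the 6 genes. With TMM they were -1.48 (tj), -1.14 (CrebA), -1.84 (jumu), 0.60 (bowl), -0.62 (CtBP) and -1.36 (br). With RLE they were -1.53, -1.19, -1.89, 0.55, -0.67 and -1.41, and scaled to gene reads -0.94, -0.60, -1.29, 1.15, -0.072 and -0.81, in the same order. So bowl lost its 2-fold call with TMM and RLE, tj, CrebA, jumu and br passed 2-fold lower with both, and CtBP turned with all 3. These scalings moved the median log2 fold of all genes by -0.79 (TMM), -0.84 (RLE) and -0.28 (gene reads), and none of them fixes the direction of genes as a whole. Pseudocounts of 0.1 and 1 RPM moved none of the 6 beyond its interval. Ratios between the 6 genes do not depend on scaling. Of all genes, 3403 were called higher and 377 lower, against 922 and 1072 with TMM (46.2% higher, beside 90.0%), 794 and 1130 with RLE (41.3%) and 2409 and 535 scaled to gene reads (81.8%). A mean of at least 10 RPM gave 2158 and 106. No filter gave 743 lower, a 1.5-fold minimum 683 lower, and an added exact count test on the reads, which compares the 2 columns only, 243 lower and 3075 higher. Of the list genes, 20 were called higher and 4 lower, against 3 and 24 with TMM, 2 and 26 with RLE, 11 and 7 scaled to gene reads, and 42 and 10 with a 1.5-fold minimum. By locus length, ranks of all 6 but tj moved by over 1.5 times in each column. A single read is worth 0.357 RPM in Yb ΔHel-C and 0.338 RPM in Yb WT, so depth limits the rows beside the 6 genes far more than the 6 genes.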
